A study of Homo sapiens with 9 samples.

Results

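The genes described are 37 components and targets of the ATF4 pathway, the amino acid response of human cells. They were taken by symbol from a list of ATF4 and amino acid response genes, and all 37 were found among the 58395 genes of the count files. The rule used no measured level, but the list was chosen with earlier results of these data known. They comprise 8 transcription factors and chromatin proteins, 9 enzymes of serine, one-carbon and amino acid synthesis, 5 stress effectors and secreted or surface proteins, 6 amino acid transporters, and 8 tRNA synthetases with the tRNA export receptor XPOT. All 37 passed the filter on low counts, as did 16575 genes in all.

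When amino acids run short or the endoplasmic reticulum is stressed, kinases phosphorylate the initiation factor eIF2, which slows translation in general but raises translation of ATF4, a leucine zipper activator. ATF4 pairs with C/EBP proteins and binds composite C/EBP-ATF elements near genes that make, import and charge amino acids, and it also turns on factors such as CHOP (DDIT3) and TRIB3 that limit or redirect the response. Because ATF4 is controlled to a large part in translation, the level of its mRNA does not give the amount of the protein. Breast cancer cells differ in how much they draw on serine synthesis and on glutamine, leucine and arginine import, which these genes carry out.

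The cells were MDA-MB-231, an established human line of mesenchymal-like, triple-negative breast cancer, and their RNA was sequenced 96 h after siRNA was introduced by reverse transfection. The groups are the SKP2 siRNA SKP2-1, the SKP2 siRNA SKP2-2 and the nontargeting control siRNA NC, with 3 libraries each. SKP2 is the substrate-binding subunit of an SCF ubiquitin ligase that marks the CDK inhibitor p27 for degradation. All groups were grown alike in DMEM with serum, and the labels name no withdrawal of amino acids. In place of SKP2, the design text gives ZIP7 as the target, the product of SLC39A7, which moves zinc out of the endoplasmic reticulum. The counts follow the sample labels: SKP2 averaged 3.58 CPM with SKP2-1 and 5.96 CPM with SKP2-2, against 62.1 CPM in NC, and SLC39A7 was called in neither comparison (adjusted p = 0.936 and 0.0868, edgeR). Levels are counts of a gene relative to the TMM-scaled library total (CPM), and a gene is called where edgeR's quasi-likelihood test gives an adjusted p below 0.05 over the 16575 genes. Nothing in the labels says that the libraries of a group come from separate cultures, so p-values measure the spread between these libraries, which may be technical. The comparisons with NC share its 3 libraries and so are not independent of each other.

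Libraries held 35.5 to 49.9 M gene counts. The members ranged from 13 counts in the lowest library for ALDH1L2 to 29141 counts in the highest for SLC38A2. VIM, a mesenchymal marker of the line, was between 2659 and 3114 CPM in every library, and the hormone receptor genes ESR1 and PGR were at or below 0.36 CPM. The 6 mesenchymal genes listed summed to 6821 to 6936 CPM with SKP2-1 and 7614 to 7841 CPM with SKP2-2. In NC their sum was 6646 to 6755 CPM. With SKP2-1, 2 of the 6 were called higher and 2 lower, with log2 fold changes from -1.15 to 0.62. With SKP2-2, 3 were higher and 0 lower. Of all tested genes, 25% were higher and 20.5% lower with SKP2-1, and 25.2% and 24.1% with SKP2-2. The whole list of 6 luminal and hormone receptor genes, of which 4 passed the filter on low counts, summed to 338 to 356 CPM with SKP2-1 and 364 to 509 CPM with SKP2-2, against 303 to 462 CPM in NC, most of it from the keratin gene KRT8. The proliferation markers fell with both siRNAs, in 6 of 6 genes each, with a summed level of 1085 to 1127 CPM with SKP2-1 and 1543 to 1584 CPM with SKP2-2, against 2506 to 2814 CPM in NC. Immune markers summed to 5.66 to 6.38 CPM with SKP2-1 and 4.71 to 4.99 CPM with SKP2-2, against 2.90 to 3.57 CPM in NC, with MS4A1 at 0 in every library. Endothelial markers summed to 15.6 to 17.4 CPM with SKP2-1 and 7.87 to 9.36 CPM with SKP2-2, against 6.91 to 7.96 CPM in NC, with CDH5 at 0 in the 3 NC libraries. The part of these shifts in the results that follow was not tested. In bulk RNA, fewer cells of a kind and less RNA per cell cannot be told apart. On the third principal component (11.3% of the variance), NC replicate 1 and SKP2-2 replicate 3 lay at 23.5 and 11.6, whereas NC replicate 3 and SKP2-2 replicate 1 lay at -16.1 and -17.3.

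The letters TGATGNAA, a form of the C/EBP-ATF composite element (N is any base), were searched on both strands of the RefSeq promoter sequences of GRCh38.p14, which run from 250 bases before to 50 bases after each transcription start. Of the 37 genes, 33 had such a sequence; NUPR1, PSPH, SHMT2 and ALDH1L2 had none. The letters were found for 12 of the 33 genes (36.4%), against 4.46% of all 27305 genes with an entry. The matches belong to ATF3, CEBPG, JDP2, ASNS, SLC1A5, SLC7A1, SLC1A4 and the synthetase genes AARS1, GARS1, IARS1, MARS1 and NARS1. A match is a description of the sequence and not evidence that a factor was bound. The following 30-base windows are a selection from the 12 genes with a match, picked for differences described later. Other genes with large differences, among them SLC7A5, CEBPB, PSAT1, PHGDH, PCK2 and ATF5, had a promoter sequence but no match in it. Each window reads 5′ to 3′ on the strand given, with the match in capitals.
CEBPG, chr19:33374060-33374089, + strand: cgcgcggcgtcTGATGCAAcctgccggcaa
JDP2, chr14:75427995-75428024, + strand: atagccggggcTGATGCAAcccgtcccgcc
SLC7A1, chr13:29595663-29595692, - strand: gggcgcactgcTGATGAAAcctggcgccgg
SLC1A5, chr19:46784893-46784922, - strand: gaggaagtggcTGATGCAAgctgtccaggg
IARS1, chr9:92293692-92293721, + strand: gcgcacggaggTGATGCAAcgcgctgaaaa
NARS1, chr18:57621804-57621833, - strand: tctacgctctcTGATGCAAcgccggaatcg
AARS1, chr16:70289675-70289704, + strand: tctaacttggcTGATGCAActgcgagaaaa
ASNS, chr7:97872458-97872487, - strand: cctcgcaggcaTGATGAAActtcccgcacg
The match lies 42 to 35 bases before the start of CEBPG, 16 to 9 before that of JDP2, and 97 to 90 before that of SLC1A5. In SLC7A1 it covers bases 8 to 15 after the start and in NARS1 bases 15 to 22. In IARS1 and AARS1 it reads on the strand opposite to the gene, 13 to 6 and 187 to 180 bases before the start. Starts are those of RefSeq. In GENCODE 29, the source of the gene spans given later, CEBPG, SLC1A5 and IARS1 begin 783, 3780 and 59 bases farther upstream. The matches of these genes therefore lie inside the printed spans. JDP2 and ASNS, whose spans are not printed, begin 306 and 134 bases farther upstream, and their matches also lie inside the gene.

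With SKP2-1, most of the called members were lower than in NC. The members called at least 1.5-fold lower were the synthesis enzymes PHGDH, PSAT1, MTHFD2, ASNS and PCK2, the transporters SLC7A1 and SLC1A4, and the isoleucine tRNA synthetase IARS1. Of the 37 genes, 20 were lower, 3 were higher and 14 were not called, where 20.5% of all tested genes were lower and 25% were higher. Called and at least 1.5-fold changed were 9 members, 8 lower and 1 higher, against 15.6% of all genes in either direction. The median log2 fold change of the members was -0.41, and that of all tested genes was 0.02. Opposite-strand genes overlap exon bases of several members, among them 41.2% for DDIT4 (DDIT4-AS1), 33.2% for MTHFD2 and 23.8% for SLC1A5, whose levels are uncertain to the extent that counting ignored strand.

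With SKP2-2, 18 members were lower, 6 were higher and 13 were not called, against 24.1% of all genes lower and 25.2% higher. At least 1.5-fold and called were 7 members, 5 lower and 2 higher, against 18.1% of all genes, so that the share of large changes among the members (18.9%) was close to the background. The median log2 fold change was -0.17, against 0.03 for all genes. The larger falls were those of SLC7A5, CEBPB, CEBPG, ATF5 and SLC7A1, whereas JDP2 and VLDLR were more than 1.5-fold higher.

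Set against each other, the siRNAs differed in most members. Of the 37 genes, 19 were higher and 8 were lower with SKP2-2 than with SKP2-1, against 25.2% of all genes higher and 25.3% lower. At least 1.5-fold and called were 13 members, 10 higher and 3 lower, against 18.5% of all genes. The median log2 difference of the members was 0.29, and that of all genes was 0.03. Libraries of the compared groups did not overlap for 25 members with SKP2-1 against NC and 25 with SKP2-2 against NC. Between the siRNAs, 32 did not overlap. Over all tested genes, 54.8%, 53.6% and 64.0% did not overlap, in the same order, so that separation of groups was common among all genes.

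**Figure D1:**
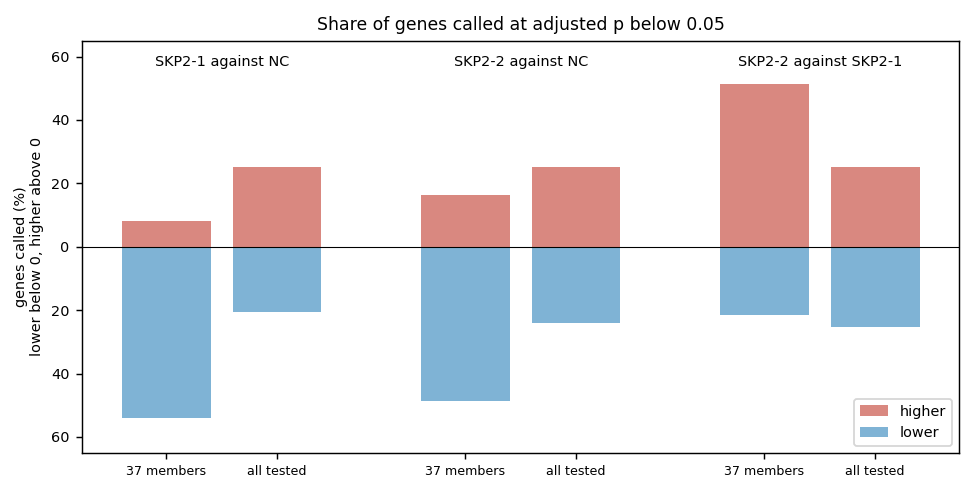
Share of genes called at an adjusted p below 0.05 in each comparison, in percent, for the 37 members and for all 16575 tested genes; bars above 0 are higher and bars below 0 lower in the group named first. Lower members made up 54.1% with SKP2-1 and 48.6% with SKP2-2 against NC, and higher members made up 51.4% in SKP2-2 against SKP2-1.

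The factors showed no common direction. With SKP2-1, 1 of 8 was higher and 2 were lower than in NC; with SKP2-2, 1 was higher and 4 were lower. The factors called made up 37.5% with SKP2-1 and 62.5% with SKP2-2, against 45.5% and 49.4% of all genes. ATF4 itself (ENSG00000128272, chromosome 22, 39519695 to 39522685) was at 156, 156 and 154 CPM with SKP2-1 and at 156, 187 and 229 CPM with SKP2-2, against 255, 196 and 194 CPM in NC. The SKP2-1 libraries were all below the NC libraries and lay within a narrow band, while the SKP2-2 libraries overlapped NC. The difference missed the threshold with SKP2-1 (log2 fold change -0.47, 95% interval -0.78 to -0.15, adjusted p = 0.0503, edgeR), and with SKP2-2 it was -0.17 (-0.49 to 0.14, adjusted p = 0.414). ATF4 was called lower with SKP2-1 under 8 of 18 alternative settings, with log2 fold changes of -0.54 to -0.34 and adjusted p of 0.000258 to 0.129 over all of them. Without NC replicate 1 and SKP2-2 replicate 3 it was called in both comparisons, at -0.34 for SKP2-1 and -0.18 for SKP2-2 (adjusted p = 0.000331 and 0.025; for SKP2-2, 0.025 to 0.81 over the alternatives). ATF4 was highest in NC replicate 1 among the NC libraries and in SKP2-2 replicate 3 among the SKP2-2 libraries, as were 9 other members: ATF5, CEBPB, PSPH, PCK2, DDIT4, TRIB3, SLC7A5, SLC1A5 and SLC6A9. The reverse order, lowest in both of these libraries, was that of 8 members: SHMT2, ALDH1L2, VLDLR, SLC7A1, SLC38A2, MARS1, NARS1 and SARS1. Shares of all tested genes with these orders were not determined, so the counts do not set the members apart. Over all tested genes, deviations from the group mean in these 2 libraries correlated at 0.72.

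The C/EBP partners of ATF4 separated the siRNAs. CEBPG (ENSG00000153879, chromosome 19, 33373330 to 33382686), a C/EBP protein that dimerizes with ATF4, was at 45.7, 46.6 and 46.2 CPM with SKP2-1 and at 34.1, 29.9 and 32.1 CPM with SKP2-2, against 58.2, 61.8 and 68.4 CPM in NC. The 3 groups did not overlap, and SKP2-2 was lowest. CEBPG fell with SKP2-1 (log2 fold change -0.44 with an SE of 0.06, adjusted p = 8.45e-05) and with SKP2-2 (-0.97 with an SE of 0.07, adjusted p = 6.11e-08), and it was lower with SKP2-2 than with SKP2-1 (-0.53, adjusted p = 1.74e-05). CEBPB (ENSG00000172216, chromosome 20, 50190734 to 50192689), an activator of inflammatory and differentiation genes, was at 27.4, 26.9 and 25.6 CPM with SKP2-1 and at 8.66, 9.05 and 10.1 CPM with SKP2-2, against 22.9, 17.5 and 18.6 CPM in NC. It was thus above every NC library with SKP2-1 and below every one with SKP2-2. CEBPB rose 1.36-fold with SKP2-1 (log2 fold change 0.44 with an SE of 0.09, adjusted p = 0.00164) and was 2.12 times lower with SKP2-2 (-1.08 with an SE of 0.10, adjusted p = 8.8e-07). Between the siRNAs, CEBPB was 2.88 times lower with SKP2-2 (-1.53, SE 0.10, adjusted p = 3.14e-08), a difference that spans both of these effects. An antisense gene, CEBPB-AS1, covers 11.8% of the CEBPB exons and had 227 counts in all, against 7180 for CEBPB.

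JDP2, a leucine zipper repressor of AP-1 sites, had the reverse order. It was at 7.29, 5.92 and 7.16 CPM with SKP2-1 and at 15.8, 14.5 and 14.5 CPM with SKP2-2, against 9.05, 9.51 and 10.2 CPM in NC. No library of any group reached into another group. JDP2 fell with SKP2-1 (log2 fold change -0.50, adjusted p = 0.000534), rose with SKP2-2 (0.64, adjusted p = 4.44e-05) and differed 2.2-fold between them (1.13, SE 0.09, adjusted p = 2.47e-07). ATF5, a paralog of ATF4 that acts in the mitochondrial stress response, was at 27.8, 28 and 26.6 CPM with SKP2-1 and at 11.5, 12.7 and 15.8 CPM with SKP2-2, against 32, 24.6 and 20.6 CPM in NC. The SKP2-2 libraries lay below all others and the SKP2-1 libraries within the NC range. ATF5 fell with SKP2-2 (-0.94, SE 0.17, adjusted p = 0.00255) and was lower there than with SKP2-1 (-1.04, adjusted p = 0.00147). NUP62 on the opposite strand covers 21.2% of the ATF5 exons, and whether the counting used strand is not given in the sources used here.

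The stress-induced factors stayed closer to NC. ATF3, induced by many stresses, averaged 9.14 ± 0.747 CPM with SKP2-1 and 7.52 ± 0.565 CPM with SKP2-2, against 9.33 ± 0.845 CPM in NC (SD, n = 3 each). It was called lower with SKP2-2 (-0.31, adjusted p = 0.014), but not without SKP2-2 replicate 2 (-0.25, adjusted p = 0.0706) or without NC replicate 3 (-0.25, adjusted p = 0.0582), with adjusted p between 0.00208 and 0.0706 over the alternatives. DDIT3, which encodes the pro-apoptotic factor CHOP, averaged 5.1 ± 0.218 CPM with SKP2-1 and 6.41 ± 0.385 CPM with SKP2-2, against 5.71 ± 0.494 CPM in NC. DDIT3 was called in neither comparison with NC (log2 fold changes -0.17 and 0.16) but was higher with SKP2-2 than with SKP2-1 (0.33, adjusted p = 0.00831). Under 5 of 18 alternatives it was called lower with SKP2-1 than in NC (adjusted p 0.0302 to 0.378 over all of them). The opposite-strand gene MARS1, itself a member, covers 27.2% of the DDIT3 exons and had 77068 counts in all, against 2246 for DDIT3. NUPR1, a small stress-induced chromatin protein, stayed between 2.4 and 3.71 CPM in every library and was not called (log2 fold changes -0.18 and -0.33, adjusted p = 0.305 and 0.0637). It was called lower with SKP2-1 under 3 and with SKP2-2 under 6 of 18 alternatives, with adjusted p of 0.0313 to 0.642 and 0.00346 to 0.223 over all of them.

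**Figure D2:**
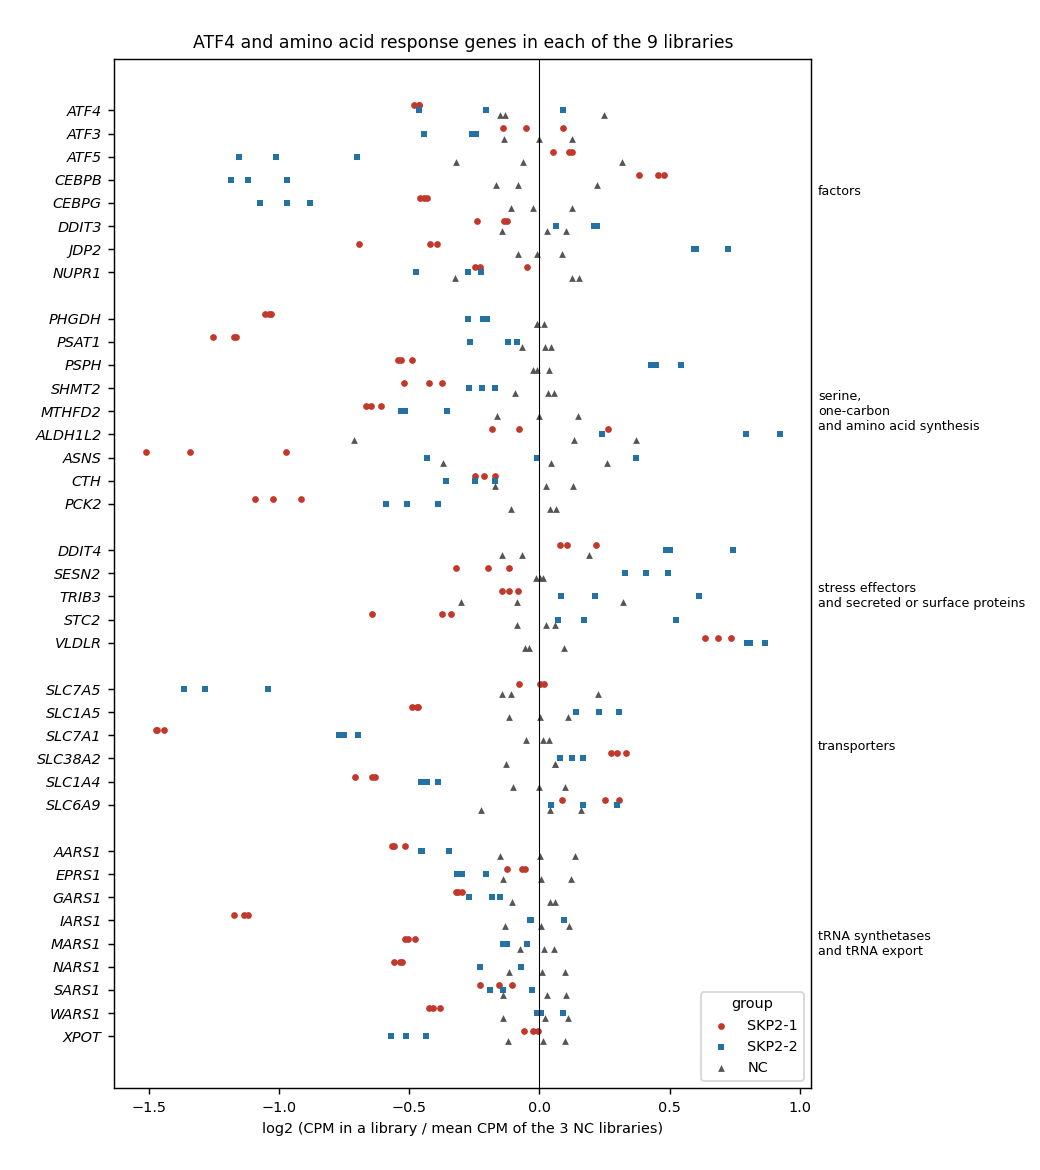
Level of each of the 37 genes in each of the 9 libraries, as log2 of CPM over the mean CPM of the 3 NC libraries (horizontal axis), grouped by role; circles are SKP2-1, squares SKP2-2 and triangles NC. The SKP2-1 libraries of PSAT1, PHGDH, IARS1 and SLC7A1 lie near or below -1, and the SKP2-2 libraries do so for SLC7A5 and CEBPB.

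The enzymes of serine, one-carbon and amino acid synthesis were lower with SKP2-1 in 8 of 9 genes and higher in none, with a median log2 fold change of -0.64. With SKP2-2, 6 were lower and 1 was higher, with a median of -0.22. Between the siRNAs, 6 of the 9 were higher with SKP2-2 and none was lower (median 0.67). Of all tested genes, 20.5% were lower with SKP2-1 and 24.1% with SKP2-2, and 25.2% were higher with SKP2-2 than with SKP2-1. PHGDH, PSAT1 and PSPH carry out the successive steps that make serine from a glycolytic intermediate. PHGDH (ENSG00000092621, chromosome 1, 119648411 to 119744226) was at 19.1, 18.9 and 18.8 CPM with SKP2-1 and at 33.5, 32.2 and 33.9 CPM with SKP2-2, against 38.7, 39.4 and 38.7 CPM in NC. The groups were separate and tight, with SKP2-2 closer to NC. With SKP2-1, PHGDH was 2.06 times lower (log2 fold change -1.04 with an SE of 0.05, adjusted p = 2.74e-09). With SKP2-2 it was 1.17 times lower (-0.23 with an SE of 0.05, adjusted p = 0.00139).

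PSAT1 (ENSG00000135069, chromosome 9, 78297143 to 78330093) was at 73.4, 69.2 and 73.1 CPM with SKP2-1 and at 155, 137 and 152 CPM with SKP2-2, against 157, 167 and 170.1 CPM in NC. The SKP2-1 libraries were at 73.4 CPM or less and the others at 137 CPM or more. PSAT1 was 2.29 times lower with SKP2-1 (-1.20, SE 0.05, adjusted p = 2.06e-09). With SKP2-2 the change was small (-0.16, adjusted p = 0.0281) and was not called without SKP2-2 replicate 2 (-0.10), NC replicate 2 (-0.15) or NC replicate 3 (-0.13), or with library size alone as the scaling (-0.11), with adjusted p between 0.000331 and 0.146 over the alternatives. PSPH (ENSG00000146733, chromosome 7, 56011051 to 56051604) was at 20.8, 20.05 and 20.2 CPM with SKP2-1 and at 39.8, 39.3 and 42.6 CPM with SKP2-2, against 29.9, 28.7 and 29 CPM in NC. The last enzyme of the pathway thus lay below NC with SKP2-1 and above it with SKP2-2. PSPH fell with SKP2-1 (-0.52, SE 0.05, adjusted p = 3.54e-06), rose with SKP2-2 (0.47, SE 0.05, adjusted p = 6.46e-06) and differed 1.99-fold between the siRNAs (0.99, adjusted p = 6.59e-09). The related pseudogene PSPHP1 took 968 counts, or 8.25% of the 11730 of PSPH.

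SHMT2 and MTHFD2, mitochondrial folate enzymes, were lower with both siRNAs. SHMT2, which splits serine into glycine and a one-carbon unit, averaged 173 ± 8.65 CPM with SKP2-1 and 201 ± 6.97 CPM with SKP2-2, against 234 ± 12.8 CPM in NC (log2 fold changes -0.44 and -0.22, adjusted p = 1.73e-05 and 0.00385). MTHFD2, which oxidizes the one-carbon unit, averaged 51.9 ± 1 CPM with SKP2-1 and 58.6 ± 4.07 CPM with SKP2-2, against 80.8 ± 8.61 CPM in NC (-0.64 and -0.47, adjusted p = 9.53e-06 and 0.000131). The siRNAs were not called different for MTHFD2 (0.17, adjusted p = 0.0614). ALDH1L2, a mitochondrial formyltetrahydrofolate dehydrogenase, was at or below 1.13 CPM in every library and was called in no comparison. Of the 17 alternatives that tested it, 4 called it higher with SKP2-2 than in NC (adjusted p 0.0247 to 0.322). For SKP2-2 against SKP2-1, 6 called it higher (0.00387 to 0.189).

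PCK2, the mitochondrial enzyme that makes phosphoenolpyruvate, was at 14, 12.4 and 13 CPM with SKP2-1 and at 18.5, 17.5 and 20.1 CPM with SKP2-2, against 27.5, 27.1 and 24.4 CPM in NC. The 3 groups were in that order without overlap. With SKP2-1 it was 2.01 times lower (-1.01 with an SE of 0.08, adjusted p = 2.02e-07), and with SKP2-2 it was 1.41 times lower (-0.49 with an SE of 0.07, adjusted p = 0.000106). CTH, which makes cysteine from cystathionine, averaged 14.8 ± 0.381 CPM with SKP2-1 and 14.3 ± 0.934 CPM with SKP2-2, against 17.1 ± 1.77 CPM in NC. Its call with SKP2-1 (-0.21, adjusted p = 0.0484) was lost under 8 of 18 alternatives (adjusted p 0.00116 to 0.175), among them leaving out any SKP2-1 library, SKP2-2 replicate 2 or 3, or NC replicate 2 or 3. Its call with SKP2-2 (-0.26, adjusted p = 0.0169) was lost without SKP2-2 replicate 2, NC replicate 2 or NC replicate 3 (adjusted p 0.000228 to 0.0827 over the alternatives). ASNS, the asparagine synthetase and a classic ATF4 target, was at 0.519, 0.461 and 0.669 CPM with SKP2-1 and at 1.7, 0.975 and 1.31 CPM with SKP2-2, against 1.57, 1.02 and 1.35 CPM in NC. It was called lower with SKP2-1 (-1.23, SE 0.26, adjusted p = 0.00148). These ASNS values are uncertain: in GENCODE 29 the gene ENSG00000284707 overlaps 96.1% of the ASNS coding bases on the same strand, and 412 counts over all libraries were left to ASNS.

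**Figure D3:**
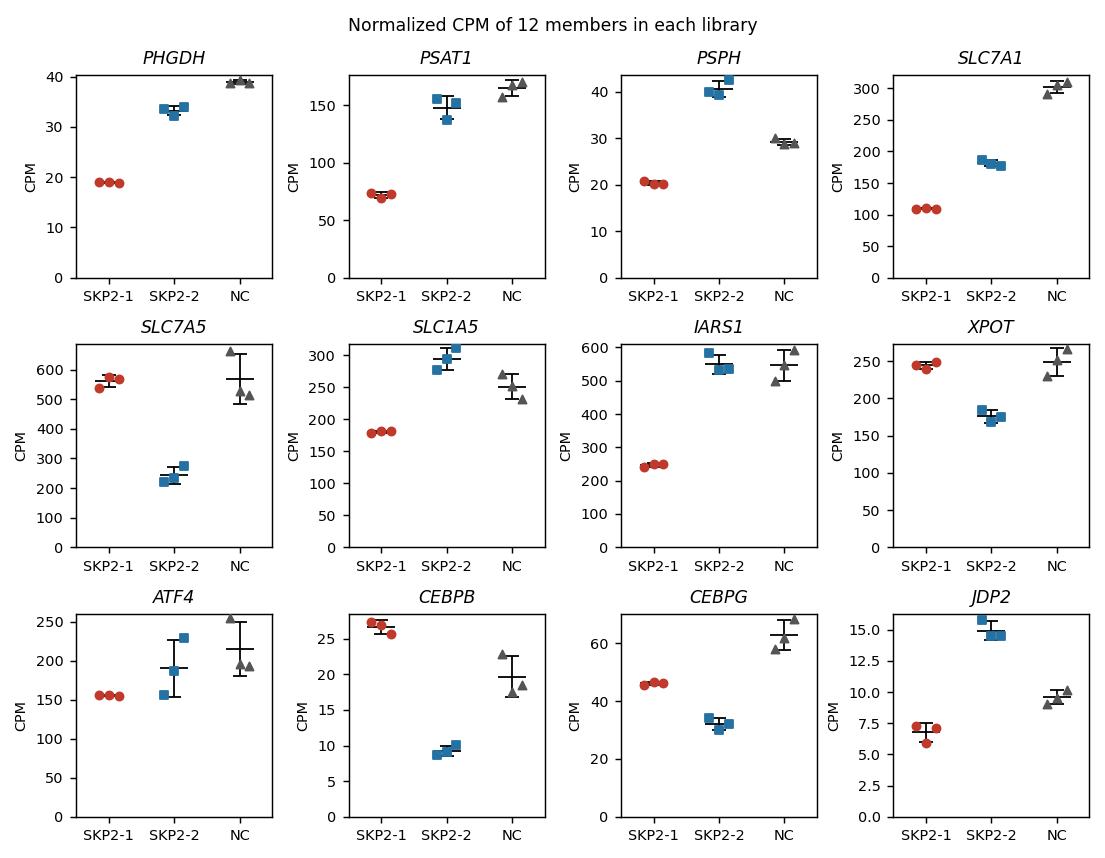
Normalized CPM of 12 of the genes in each library (points), with the mean and SD of the 3 libraries of a group (bars); groups run SKP2-1, SKP2-2, NC from left to right and each vertical axis starts at 0. PSAT1 is at 69.2 to 73.4 CPM with SKP2-1, SLC7A5 at 221 to 276 CPM with SKP2-2, and PSPH, SLC1A5 and JDP2 lie on opposite sides of NC with the 2 siRNAs.

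The stress effectors and secreted or surface proteins were the role with more rises than falls with SKP2-2, where 3 of 5 were higher and none was lower. With SKP2-1, 1 was higher and 1 was lower. Of all tested genes, 25.2% were higher and 24.1% lower with SKP2-2, and 25% were higher and 20.5% lower with SKP2-1. VLDLR (ENSG00000147852, chromosome 9, 2621834 to 2660053), a receptor for triglyceride-rich lipoproteins and reelin, was at 60.2, 58 and 62.3 CPM with SKP2-1 and at 68.1, 65.5 and 64.9 CPM with SKP2-2, against 35.9, 36.3 and 39.9 CPM in NC. Every knockdown library was above every NC library. VLDLR rose 1.61-fold with SKP2-1 (log2 fold change 0.69 with an SE of 0.05, adjusted p = 2.7e-07) and 1.77-fold with SKP2-2 (0.82, SE 0.05, adjusted p = 4.16e-08), and was the member called higher in both comparisons. The small difference between the siRNAs (0.14, adjusted p = 0.0443) was lost under 11 of 18 alternatives, including leaving out any SKP2-1 or SKP2-2 library or NC replicate 2.

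DDIT4 and SESN2 both restrain the growth kinase complex mTORC1. DDIT4 was at 153, 156 and 168 CPM with SKP2-1 and at 203, 205 and 242 CPM with SKP2-2, against 165, 138 and 131 CPM in NC. The SKP2-2 libraries were above all others. DDIT4 rose with SKP2-2 (0.58, SE 0.10, adjusted p = 0.000948), was not called with SKP2-1 (0.14, adjusted p = 0.302) and was higher with SKP2-2 than with SKP2-1 (0.45, adjusted p = 0.00437). SESN2 was at 18.2, 17.2 and 15.8 CPM with SKP2-1 and at 26.2, 24.8 and 27.8 CPM with SKP2-2, against 19.8, 19.6 and 19.9 CPM in NC. It lay above NC with SKP2-2 and slightly below it with SKP2-1. SESN2 rose with SKP2-2 (0.41, SE 0.07, adjusted p = 0.00019) and was called lower with SKP2-1 (-0.21, adjusted p = 0.0213), but the SKP2-1 call was lost without SKP2-1 replicate 2 (-0.21, adjusted p = 0.056) or replicate 3 (-0.16, adjusted p = 0.115), with adjusted p from 0.00906 to 0.115 over the alternatives. TRIB3, a pseudokinase that dampens ATF4 activity, was at 29.4, 30.1 and 28.9 CPM with SKP2-1 and at 33.8, 37 and 48.9 CPM with SKP2-2, against 39.8, 30.1 and 25.9 CPM in NC. NC replicate 1 and SKP2-2 replicate 3 were the high libraries of their groups, and TRIB3 was called in no comparison (0.33 with SKP2-2, 95% interval -0.04 to 0.70, adjusted p = 0.201). Without those libraries it was called higher with SKP2-2 (0.34, adjusted p = 0.000898), and adjusted p ran from 0.000898 to 0.512 over the alternatives. STC2, a secreted glycoprotein of the stress response, was at or below 1.59 CPM in every library and was called between the siRNAs (0.71, adjusted p = 0.00429) but not against NC. Under 5 of 18 alternatives STC2 was called lower with SKP2-1 than in NC (adjusted p 0.0254 to 0.192 over all of them).

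With each siRNA, the lowest log2 fold change of any member against NC was that of a transporter gene. SLC7A1 (ENSG00000139514, chromosome 13, 29509410 to 29595688), the CAT1 carrier of arginine and lysine, was at 109, 111 and 109 CPM with SKP2-1 and at 186, 179.8 and 177 CPM with SKP2-2, against 292, 305 and 310.0 CPM in NC. The groups were far apart, and the spread within each was small. With SKP2-1, SLC7A1 was 2.76 times lower (log2 fold change -1.46 with an SE of 0.04, adjusted p = 5.96e-11). With SKP2-2 it was 1.67 times lower (-0.74 with an SE of 0.04, adjusted p = 1.18e-08) and 1.65-fold higher than with SKP2-1 (adjusted p = 1.41e-08). SLC7A5 (ENSG00000103257, chromosome 16, 87830023 to 87869488), the LAT1 carrier of leucine and other large neutral amino acids, was at 538, 576 and 569 CPM with SKP2-1 and at 221, 234 and 276 CPM with SKP2-2, against 664, 527 and 515 CPM in NC. The SKP2-2 libraries were below all others, and the SKP2-1 libraries lay within the NC range. SLC7A5 was 2.34 times lower with SKP2-2 (-1.22, SE 0.12, adjusted p = 3.49e-05), -0.02 with SKP2-1 (95% interval -0.24 to 0.20), and -1.20 between the siRNAs (adjusted p = 3.8e-05).

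SLC1A5 (ENSG00000105281, chromosome 19, 46774883 to 46788594), the ASCT2 carrier of glutamine, was at 179, 182 and 182 CPM with SKP2-1 and at 277, 295 and 311 CPM with SKP2-2, against 271, 252 and 232 CPM in NC. It fell below NC with SKP2-1 and rose above it with SKP2-2 without overlap. The log2 fold changes were -0.48 with SKP2-1 (SE 0.06, adjusted p = 1.98e-05) and 0.23 with SKP2-2 (SE 0.06, adjusted p = 0.00547), and the siRNAs differed 1.63-fold (0.70, adjusted p = 4.37e-07). SLC1A4, the ASCT1 carrier of alanine, serine and cysteine, averaged 10.3 ± 0.286 CPM with SKP2-1 and 12.1 ± 0.289 CPM with SKP2-2, against 16.2 ± 1.12 CPM in NC. It was lower with both (-0.66 and -0.43, adjusted p = 4.66e-06 and 0.000183). SLC38A2, the SNAT2 carrier of small neutral amino acids, averaged 602 ± 12.1 CPM with SKP2-1 and 532 ± 16.1 CPM with SKP2-2, against 488 ± 35.6 CPM in NC. It rose with SKP2-1 (0.30, adjusted p = 0.000473) and was not called with SKP2-2 (0.12, adjusted p = 0.0754). The difference between the siRNAs for SLC38A2 (-0.18, adjusted p = 0.0148) was lost without SKP2-1 replicate 1 or SKP2-2 replicate 3 (adjusted p 0.000514 to 0.0596 over the alternatives). SLC6A9, a glycine carrier, averaged 43.3 ± 3.34 CPM with SKP2-1 and 41.9 ± 3.65 CPM with SKP2-2, against 37.2 ± 4.92 CPM in NC, and was not called.

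**Figure D4:**
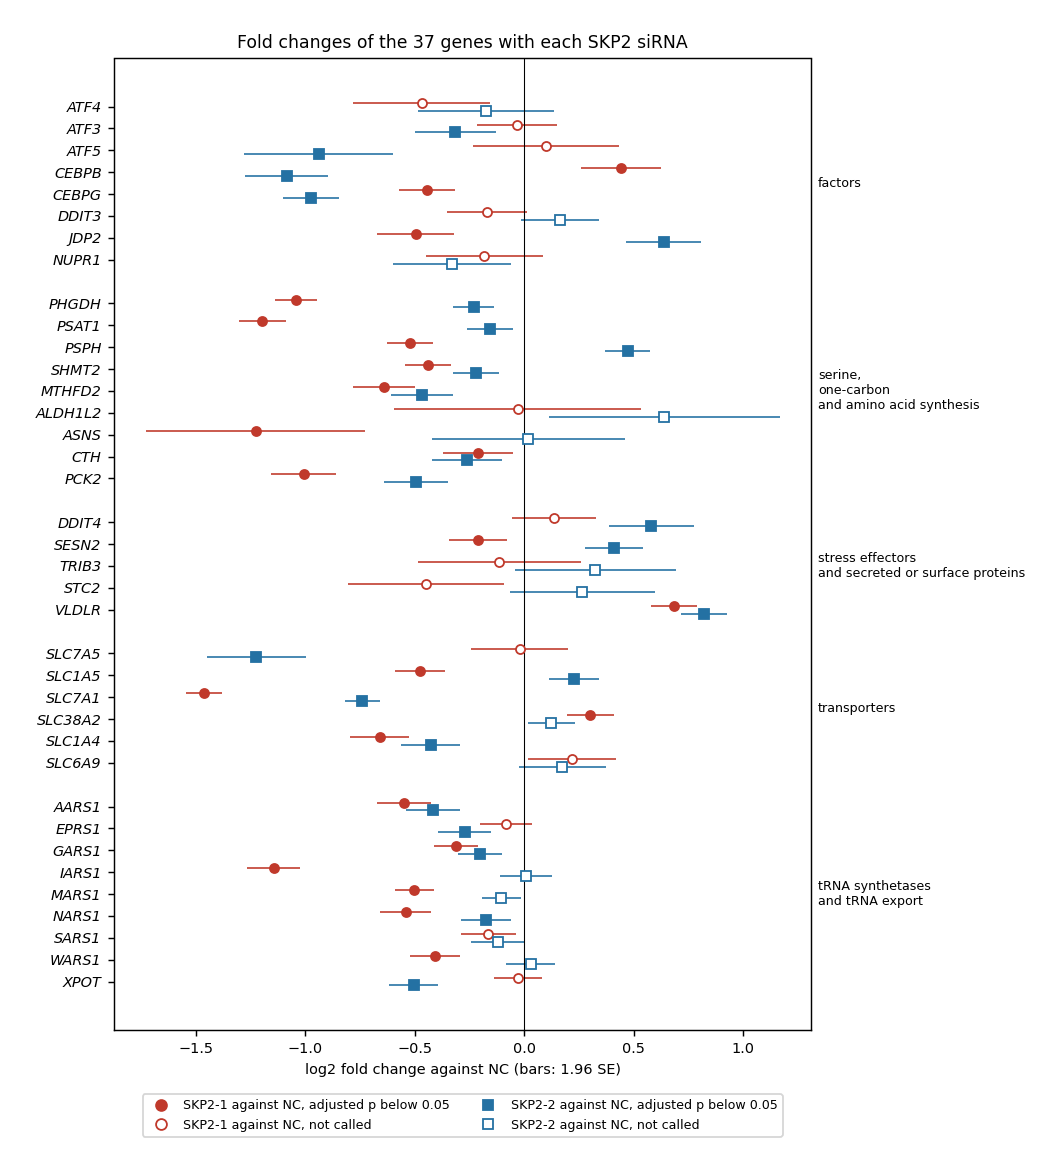
Log2 fold changes against NC with 95% intervals (horizontal axis) for the 37 genes by role; circles are SKP2-1 and squares SKP2-2, filled where the adjusted p is below 0.05. SLC7A1 at -1.46 is the lowest SKP2-1 value and SLC7A5 at -1.22 the lowest SKP2-2 value, and VLDLR is the highest in both.

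The tRNA synthetase genes, which charge tRNAs with amino acids, were lower in 6 of 8 with SKP2-1 and in 4 of 8 with SKP2-2, and higher in none, where 20.5% and 24.1% of all genes were lower. Of these falls, 1 with SKP2-1, that of IARS1, and none with SKP2-2 reached 1.5-fold. IARS1 (ENSG00000196305, chromosome 9, 92210207 to 92293756), for isoleucine, was at 242, 249 and 251 CPM with SKP2-1 and at 583, 532 and 534 CPM with SKP2-2, against 498, 549 and 591 CPM in NC. The SKP2-1 libraries stood alone at 251 CPM or less, and the SKP2-2 libraries overlapped NC. With SKP2-1, IARS1 was 2.21 times lower (log2 fold change -1.14 with an SE of 0.06, adjusted p = 8.78e-09). With SKP2-2 the log2 fold change was 0.01 (95% interval -0.11 to 0.13), and IARS1 was 2.22-fold higher than with SKP2-1 (1.15, adjusted p = 6.69e-09). WARS1, for tryptophan, averaged 146 ± 2.15 CPM with SKP2-1 and 197 ± 7.35 CPM with SKP2-2, against 193 ± 16.7 CPM in NC; it fell with SKP2-1 (-0.41, adjusted p = 7.46e-05) and was 0.03 with SKP2-2 (-0.08 to 0.14). The signs of IARS1 and WARS1 with SKP2-2 turned without replicate 1 of NC and of SKP2-2 (-0.12 and -0.087). MARS1, for methionine, averaged 159 ± 2.14 CPM with SKP2-1 and 209 ± 7.03 CPM with SKP2-2, against 225 ± 10.5 CPM in NC; it fell with SKP2-1 (-0.50, adjusted p = 1.36e-06) and was not called with SKP2-2 (-0.10, adjusted p = 0.0779), where 6 of 18 alternatives called it lower (adjusted p 0.00022 to 0.241).

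AARS1, GARS1 and NARS1, for alanine, glycine and asparagine, were lower with both siRNAs. AARS1 was at 141, 140.1 and 145 CPM with SKP2-1 and at 163, 151 and 152 CPM with SKP2-2, against 187, 208 and 228 CPM in NC (log2 fold changes -0.55 and -0.42, adjusted p = 1.09e-05 and 0.000101). GARS1 averaged 216 ± 1.8 CPM with SKP2-1 and 233 ± 9.86 CPM with SKP2-2, against 268 ± 16.7 CPM in NC (-0.31 and -0.20, adjusted p = 0.000244 and 0.00533). NARS1 averaged 166 ± 1.69 CPM with SKP2-1 and 214 ± 13.6 CPM with SKP2-2, against 242 ± 18.1 CPM in NC. For AARS1 the SKP2-1 and SKP2-2 libraries lay below all NC libraries, and the siRNAs were not called different (0.13, adjusted p = 0.105). NARS1 fell with SKP2-1 (-0.54, adjusted p = 6.7e-06); its call with SKP2-2 (-0.17, adjusted p = 0.0253) was lost under 6 of 18 alternatives (adjusted p 3.66e-06 to 0.105), among them leaving out SKP2-2 replicate 2 or 3 or NC replicate 2 or 3. EPRS1, for glutamate and proline, averaged 371 ± 9.06 CPM with SKP2-1 and 325 ± 13.4 CPM with SKP2-2, against 393 ± 35.4 CPM in NC, and was called lower with SKP2-2 (-0.27, adjusted p = 0.00219). SARS1, for serine, averaged 201 ± 8.44 CPM with SKP2-1 and 207 ± 12 CPM with SKP2-2, against 225 ± 19 CPM in NC, and was called in neither comparison (adjusted p = 0.0527 and 0.139); with SKP2-1 it was called under 9 of 18 alternatives (0.000114 to 0.194). XPOT, which exports tRNA from the nucleus, was at 245, 239 and 249 CPM with SKP2-1 and at 184, 168 and 175 CPM with SKP2-2, against 229.5, 252 and 267 CPM in NC. XPOT fell with SKP2-2 (-0.50, SE 0.06, adjusted p = 7.03e-06), where its libraries lay below all others, and was lower there than with SKP2-1 (-0.48, adjusted p = 1.2e-05).

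In the comparisons with NC, which share its libraries, CEBPG, PHGDH, PSAT1, SHMT2, MTHFD2, CTH, PCK2, SLC7A1, SLC1A4, AARS1, GARS1 and NARS1 were each called lower with both siRNAs. Those 12 genes are 32.4% of the members, against 11% of all genes tested (1822 of 16575). The shares were not tested against each other. Of these 12 genes, 7 were lower with SKP2-1 than with SKP2-2 in the direct test, 1 (CEBPG) was lower with SKP2-2, and 4 were not called. Over all tested genes, 25.2% were higher and 25.3% lower with SKP2-2 in that test. Of the genes not called, MTHFD2, AARS1 and GARS1 were called higher with SKP2-2 under 8, 6 and 6 of 18 alternatives. The direct call of SLC1A4 (0.23, adjusted p = 0.0135) was lost without SKP2-1 replicate 1 (0.21, adjusted p = 0.0615; 0.00462 to 0.0615 over the alternatives). CEBPB was called higher with SKP2-1 and lower with SKP2-2, and JDP2, PSPH, SESN2 and SLC1A5 were called lower with SKP2-1 and higher with SKP2-2. ATF4, DDIT3, NUPR1, ALDH1L2, TRIB3, STC2, SLC6A9 and SARS1 were called in neither comparison with NC.

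The members with a promoter match to TGATGNAA were lower with SKP2-1 in 11 of 12 genes, all but ATF3, with a median log2 fold change of -0.52. The 21 genes with a promoter sequence but no match were lower in 7, higher in 3 and not called in 11, with a median of -0.16. With SKP2-2, the 12 genes with a match were lower in 7 and higher in 2 (JDP2 and SLC1A5), with a median of -0.19, and the 21 without were lower in 10 and higher in 3, with a median of -0.16. SLC7A5, ATF5 and XPOT, which fell with SKP2-2, had no match in this window, nor had PHGDH and PSAT1. Of all tested genes, 20.5% were lower and 25% higher with SKP2-1, and 24.1% were lower and 25.2% higher with SKP2-2. Matches were found for 5 of 8 synthetase genes and 0 of 5 stress effectors, so role and match cannot be told apart. The split by promoter match was made with these fold changes known, and its difference was not tested.

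**Figure D5:**
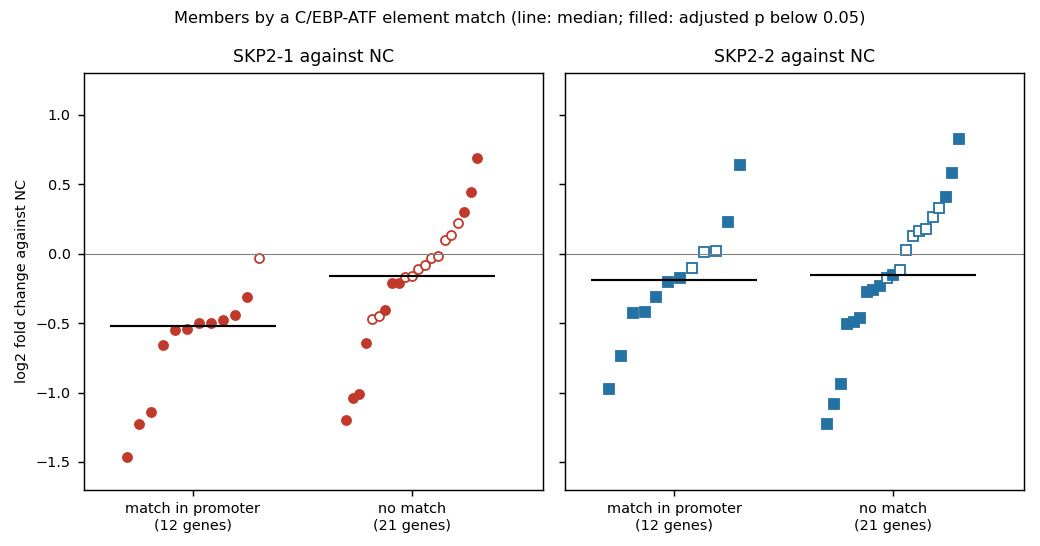
Log2 fold change against NC (vertical axis) of members with (12 genes) and without (21 genes) the letters TGATGNAA in the RefSeq promoter, for SKP2-1 on the left and SKP2-2 on the right; each point is a gene, filled where called, and lines are medians. With SKP2-1 the medians are -0.52 and -0.16, and with SKP2-2 they are -0.19 and -0.16.

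Levels per exon length in NC ran from 119.9 CPM per kb for SLC7A5 to 0.0703 CPM per kb for ALDH1L2. ATF4 followed SLC7A5 at 85.5 CPM per kb, and then came SLC1A5, PSAT1, SLC38A2, IARS1, EPRS1 and DDIT4 between 75.5 and 70.4 CPM per kb, which lie close together. With SKP2-1, SLC7A5 was at 118 and PSAT1 at 32.9 CPM per kb; with SKP2-2, DDIT4 led at 105 and SLC7A5 was at 51.3 CPM per kb. The members' coefficient of variation between libraries had a median of 2.77% with SKP2-1, 6.01% with SKP2-2 and 8.42% in NC. ATF4 was the least variable member with SKP2-1 (0.665%), and NC replicate 1 was the lowest NC library for 25 of the 37 genes. The share of all tested genes lowest in that library was not determined.

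Other genes of the pathway, 112 in 7 lists of which 100 were tested, were called in both directions. With SKP2-1, 14 were higher and 31 lower; with SKP2-2, 26 were higher and 31 lower. The share called was 45% with SKP2-1 and 57% with SKP2-2, against 45.5% and 49.4% of all genes. By direction, 14% were higher and 31% lower with SKP2-1, against 25% and 20.5% of all genes. The total with SKP2-1 was thus near the background, while fewer genes were higher and more were lower. With SKP2-2, 26% were higher and 31% lower, against 25.2% and 24.1% of all genes. Among 14 tested further ATF4 targets, 2 were higher and 3 lower with SKP2-1, and 8 were higher and 2 lower with SKP2-2. The share called was 35.7% with SKP2-1 and 71.4% with SKP2-2, against 45.5% and 49.4% of all genes. Between the siRNAs, 10 were higher and 3 lower with SKP2-2, or 92.9% called against 50.5% of all genes. Called there and at least 1.5-fold changed were 57.1%, against 18.5% of all genes. EIF4EBP1, a translation repressor, was at 13.4, 13.8 and 15 CPM with SKP2-1 and at 41.6, 40.4 and 42 CPM with SKP2-2, against 35.1, 31.8 and 32.9 CPM in NC (log2 fold changes -1.24 and 0.31, adjusted p = 4.31e-09 and 0.000653). GDF15, a stress-induced cytokine, was at 60.5, 64.1 and 59.2 CPM with SKP2-1 and at 25.3, 29.4 and 40.5 CPM with SKP2-2, against 26.3, 17.3 and 13 CPM in NC. It rose with SKP2-1 (1.71, adjusted p = 0.00294), was not called with SKP2-2 (0.76, adjusted p = 0.0693), and was lower with SKP2-2 than with SKP2-1 (-0.95, adjusted p = 0.0295). EIF4EBP1 thus lay below NC with SKP2-1 and above it with SKP2-2, and all 3 SKP2-1 libraries were above NC for GDF15.

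Among 18 subunits and kinases of the eIF2 system, 4 were higher and 6 lower with SKP2-1, and 4 were higher and 4 lower with SKP2-2, so that 55.6% and 44.4% were called against 45.5% and 49.4% of all genes. EIF2AK1, the heme-regulated eIF2 kinase, was at 142, 145 and 142 CPM with SKP2-1 and at 63.8, 63.4 and 63.5 CPM with SKP2-2, against 120.0, 129.7 and 127 CPM in NC. The SKP2-2 libraries were nearly equal and below all others (log2 fold change -0.98 with an SE of 0.04, adjusted p = 1.12e-09; -1.17 against SKP2-1, adjusted p = 2.05e-10). EIF2S2, the beta subunit of eIF2, was at 130.4, 122 and 129.9 CPM with SKP2-1 and at 219.8, 224 and 254 CPM with SKP2-2, against 233, 204 and 219 CPM in NC. It fell with SKP2-1 (-0.78, adjusted p = 4.33e-07) and had a log2 fold change of 0.09 with SKP2-2 (95% interval -0.033 to 0.21), not called. Of 9 tested ATF and C/EBP relatives, 2 were higher and 1 lower with SKP2-1, and 1 was higher and 2 lower with SKP2-2, among them ATF2, a stress-kinase-activated factor (-0.75 with SKP2-2, adjusted p = 2.4e-07). The share of these relatives called was 33.3% with each siRNA, below that of all genes.

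Of 14 further genes of amino acid and one-carbon metabolism, 8 were lower and 1 higher with each siRNA. BCAT1, the cytosolic branched-chain aminotransferase, was at 162, 168 and 162 CPM with SKP2-1 and at 169, 162 and 165 CPM with SKP2-2, against 282, 304 and 331 CPM in NC (-0.90 and -0.89, adjusted p = 2.56e-08 and 2.61e-08). Of 13 other amino acid transporters, 4 were higher and 3 lower with SKP2-1, and 3 were higher and 7 lower with SKP2-2. SLC7A2, the CAT2 relative of SLC7A1, was at 65.2, 64.4 and 63.7 CPM with SKP2-1 and at 9.81, 10.2 and 10.3 CPM with SKP2-2, against 67.6, 71.6 and 76.8 CPM in NC. It fell with SKP2-2 (-2.83, SE 0.06, adjusted p = 3.66e-12) more than SLC7A1 did, and it was lower there than with SKP2-1 (-2.67, adjusted p = 4.26e-12). Of 15 further cytosolic synthetase genes and scaffold proteins, 1 was higher and 6 lower with SKP2-1, and 3 were higher and 4 lower with SKP2-2. FARSB, a phenylalanine synthetase subunit, fell with both (-0.62 and -0.60), whereas YARS1, for tyrosine, fell with SKP2-1 (-0.59, adjusted p = 5.75e-07) and was slightly higher with SKP2-2 (0.14, adjusted p = 0.0285). Of 17 mitochondrial synthetase genes, none was higher and 4 were lower with SKP2-1, and 6 were higher and 4 lower with SKP2-2. With SKP2-1, the shares called were 64.3% (metabolism), 53.8% (transporters), 46.7% (cytosolic synthetases) and 23.5% (mitochondrial synthetases), against 45.5% of all genes. In the same order, they were 64.3%, 76.9%, 46.7% and 58.8% with SKP2-2, against 49.4% of all genes.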

How the data were processed

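Per the submitters' processing notes, STAR, HTSeq (0.6.1), Trim Galore (0.4.1), DESeq2 (1.16.1) and FastQC (0.11.2) were used; settings, genome build, annotation and strand of counting are not given in the sources used here. The authors deposited raw read counts per Ensembl gene, 1 file for each of 9 libraries. The closing lines of each file, reads in no gene (5.34% to 5.92% of all) or in several (3.87% to 3.97%), were left out. Gene positions come from GENCODE 29 by identifier.

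Counts were filtered with filterByExpr (minimum count 10, total 15), scaled by TMM and fitted with edgeR 4.0.16 in R 4.3.3 (robust quasi-likelihood, group only, all 9 libraries). Tests were two-sided, with Benjamini-Hochberg adjustment over 16575 genes. SEs are of log2 fold changes. Alternatives were library size alone or RLE as scaling, other filters, DESeq2 1.42.0, only the groups compared, a replicate block, leaving out single libraries and 2 pairs of libraries. Deviations from the group mean correlated at -0.71 to 0.10 between same-numbered libraries, and the main fit did not pair the numbers. Across numbers, NC replicate 1 and SKP2-2 replicate 3 correlated at 0.72, and NC replicate 3 and SKP2-2 replicate 1 at 0.67. The labels name nothing that these libraries share, and the cause was not tested. No pair of libraries agreed within counting noise.

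Every member is named. Of other pathway lists, up to 3 called genes of at least 1 CPM with the largest changes could be named per comparison. The members, lists and alternatives were chosen with earlier results of these data known.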

Additional observations from a re-analysis of the deposited data

Results flagged for a closer look

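For 5 genes, the siRNAs were called in opposite directions against NC and the direct test between them passed. In such genes the direct difference spans both effects, so its test adds no independent support. That is 13.5% of the members, against 6.64% of all genes tested (1100 of 16575); the comparisons share the NC libraries, and the shares were not tested against each other. The log2 difference, SKP2-2 minus SKP2-1, was -1.53 for CEBPB, 1.13 for JDP2, 0.99 for PSPH, 0.70 for SLC1A5 and 0.62 for SESN2. The SESN2 call against NC with SKP2-1 rested on SKP2-1 replicates 2 and 3.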

How the results depend on the processing

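Of the member calls, 21 of 23 with SKP2-1, 20 of 24 with SKP2-2 and 22 of 27 between the siRNAs held under every one of 18 alternatives. The members not called held less well: 4 of 14, 3 of 13 and 4 of 10, in the same order, were called under no alternative. The median log2 fold change with SKP2-1 was -0.47 when only the groups compared were fitted, and -0.44 to -0.35 when single libraries were left out. With SKP2-2 it was -0.24 (without SKP2-2 replicate 1) to -0.13, and -0.25 without replicate 1 of both NC and SKP2-2, an alternative added after seeing the data; there IARS1 became -0.12 (adjusted p = 0.0133; 0.0133 to 0.933 over its alternatives) and WARS1 -0.087 (0.043; 0.043 to 0.995), against 0.01 and 0.03. Members higher with SKP2-1 numbered 3 to 5 when single libraries were left out (5 without NC replicate 1), and 6 without NC replicate 1 and SKP2-2 replicate 3. Members lower in SKP2-2 against SKP2-1 numbered 5 (without SKP2-1 replicate 1) to 8. The cause was not tested. With the replicate block, 3 members were higher and 19 lower with SKP2-1, 6 and 17 with SKP2-2, and 18 and 7 between the siRNAs; same-numbered libraries correlated at -0.71 to 0.10. With 3 libraries a group, small changes such as those of CTH, SESN2 and NARS1 lie at the limit of what the spread allows, and ALDH1L2, ASNS and STC2 rest on few counts.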
